A study of Mus musculus with 27 samples.

Results

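Serpinf1, Pcsk6 and Ckb are 3 genes that were chosen by their measured levels in sorted Prx1 cells. They are 3 of the 30153 genes in the expression table and 3 of the 18442 genes that passed the filter on low values. The choice used 1 pattern, a level in the sorted fraction called P1 that was higher than in the other fractions. This held in muscle, periosteum and bone marrow, with no overlap between libraries. Every comparison of P1 with P2 or P3 is therefore given for these genes as a description and carries no test. The same holds for the size of that difference in one tissue beside another. Tests are given for P1 cells between tissues and for P2 against P3 within a tissue, which are contrasts other than that of the choice, although its demand across tissues drew on the same libraries.

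Bone marrow and periosteum were taken from femur and tibia, and muscle from around the femurs. The cells came from Prx1-CreER/Ai14/Rag1 mice of both sexes, aged 8 to 12 weeks and taken 3 days after tamoxifen. In these mice the Prx1 promoter drives a Cre that is active after tamoxifen, the cells that had it active and their progeny carry tdTomato, and the loss of Rag1 removes mature lymphocytes. All 9 groups share these alleles and the tamoxifen. Digestion took 60 minutes for muscle and 20 minutes for periosteum, while marrow was flushed out of the bones. Tagged cells without CD45, the surface protein of leukocytes, were sorted into fractions by surface CD105 (endoglin) and CD200. P1 cells lacked CD105 and carried CD200, P2 cells lacked both, and P3 cells carried CD105 with variable CD200. Each fraction of each tissue had 3 replicates, which gave 27 libraries. The sources used here do not say which animal gave which library, and p-values measure the spread between these libraries only.

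The values are normalized counts as deposited by the authors, and their sum per library ran from 8631881 to 26230908. Cd200 transcripts matched the gates in part. The Cd200 level was 1025 to 7515 in P1 and 7.24 to 1107 in P2, with overlap in muscle. Cd200 was not highest in P1 of each tissue. In muscle it was 6525 to 8340 in P3 and 1025 to 3274 in P1. In periosteum it was 3700 to 5554 in P3 and 2607 to 3972 in P1, and in bone marrow 451 to 905 and 6315 to 7515. Eng, which encodes CD105, was higher in P3 than in P1 and P2 of the same tissue. The 6 erythroid markers made up 24.4% to 48.1% of the summed counts in the P2 libraries of periosteum and bone marrow and at most 4.42% in the other libraries. The 6 myofibre markers made up 9.59% to 13.8% in muscle P2 and at most 0.333% in the other groups. The single transgene row, which does not name its transgene, lay at 1181 to 1296 in bone marrow P2 and at 24200 to 47050 in bone marrow P1. In bulk libraries fewer cells of a type and less RNA per cell cannot be told apart.

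Serpinf1 encodes pigment epithelium-derived factor (PEDF), a secreted member of the serpin family that does not inhibit proteases. It restrains the growth of blood vessels, binds collagen, and is lost in 1 form of osteogenesis imperfecta, a disease of fragile bone. Pcsk6 encodes PACE4, a proprotein convertase that is secreted, is held in the extracellular matrix by heparan sulfate, and cuts the precursors of growth factors and matrix proteases into active forms. Ckb encodes the brain-type creatine kinase of the cytosol, which passes phosphate between ATP and creatine and so buffers ATP where demand changes fast. Ckm is its counterpart in muscle fibres.

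In the GENCODE M21 annotation of the mouse build GRCm38, Serpinf1 (ENSMUSG00000000753) lies on the minus strand at chr11:75409769-75422701. Pcsk6 (ENSMUSG00000030513) lies on the plus strand at chr7:65861734-66050386 and Ckb (ENSMUSG00000001270) on the minus strand at chr12:111669361-111672338. Their longest coding transcripts have 8 exons and 1832 bases for Serpinf1, 22 exons and 4405 bases for Pcsk6, and 8 exons and 1472 bases for Ckb. The genes sit on 3 chromosomes and thus share no local neighbourhood. In Pcsk6, Gm45213 on the same strand and Gm20684 on the opposite strand overlap the gene and were not used here. The strand setting of the counting is not given in the sources used here, so reads of overlapping genes may be shared.

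Because the 3 genes were chosen for a shared pattern, the DNA before their RefSeq starts is shown. The bases come from RefSeq (GRCm38.p6) and run 5′ to 3′ on the strand of the gene, from 250 bases before the RefSeq start up to that start or to the first annotated exon of the gene. They cover chr11:75422702-75422873 for Serpinf1, chr7:65861886-65862028 for Pcsk6 and chr12:111672339-111672588 for Ckb. The Pcsk6 stretch lies inside the GENCODE span of Pcsk6 given above, since the RefSeq start is further in. Gm12336, a long noncoding RNA gene on the minus strand, overlaps the Serpinf1 stretch, and Gm20684 overlaps that of Pcsk6. Capitals mark the CCAAT box (CCAAT), the RUNX core (TGTGGT), the TEAD site (GGAATG) and the TATA box (TATAAA), and CCAAT and GGAATG adjoin in Ckb.
Serpinf1: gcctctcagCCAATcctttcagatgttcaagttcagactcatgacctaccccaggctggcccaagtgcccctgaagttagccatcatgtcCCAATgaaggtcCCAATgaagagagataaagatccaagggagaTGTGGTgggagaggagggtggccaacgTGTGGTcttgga
Pcsk6: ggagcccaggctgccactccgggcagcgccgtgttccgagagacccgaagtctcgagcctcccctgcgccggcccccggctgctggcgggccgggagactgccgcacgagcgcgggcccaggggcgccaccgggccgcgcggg
Ckb: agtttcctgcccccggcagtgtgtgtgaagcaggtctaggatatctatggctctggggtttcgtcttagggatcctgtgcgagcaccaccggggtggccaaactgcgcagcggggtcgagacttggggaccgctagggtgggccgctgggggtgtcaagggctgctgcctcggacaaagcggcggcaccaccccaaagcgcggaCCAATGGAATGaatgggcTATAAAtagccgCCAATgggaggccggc

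The 3 windows had no searched motif in all of them. In the full 250 bases before each RefSeq start, searched on both strands, Serpinf1 held 3 matches to CCAAT, 241, 160 and 148 bases before the start. A match to CCAAT or its reverse was held by 33.8% of 32851 RefSeq promoter windows of the same length. Serpinf1 also held 2 matches to the RUNX core, 117 and 90 bases before the start, where 14% of windows held at least 1. RUNX factors include Runx2, which directs osteoblast differentiation, and a match here is a match of letters only. Ckb held the TATA box letters 28 bases before its start (12.4% of windows), 2 matches to CCAAT and 1 to the TEAD site (12.6%).

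Pcsk6 differed in base composition. Its window, which lies inside the GENCODE span of the gene, was 81.2% G or C with 40 CG pairs. The values were 51.6% and 2 in Serpinf1 and 62.8% and 16 in Ckb. The median over all windows was 52.4%, with quartiles of 45.2% and 61.2%, and a median of 6 CG pairs. Pcsk6 held 2 matches to the GC box (GGGCGG, 32.7% of windows), which lie in or reach into annotated exon and are not printed. No window held the AP-1 letters TGANTCA (6.75%). Serpinf1 held 4 matches to the E-box letters CANNTG, which 66.2% of windows hold and which are not in capitals above.

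Serpinf1 was high in P1 of every tissue and highest in bone marrow P1. In muscle the normalized counts of replicates 1, 2 and 3 were 31454, 23656 and 24845 in P1, 8936, 8530 and 12902 in P2, and 16460, 16232 and 18486 in P3. In periosteum they were 66452, 53841 and 49531 in P1, 4829, 854 and 2725 in P2, and 13008, 20504 and 15219 in P3. In bone marrow they were 102489, 147594 and 92614 in P1, 265, 108 and 251 in P2, and 1163, 1706 and 2400 in P3. In each tissue the order was P1, P3, P2, with no overlap between the 3 fractions. The lack of overlap between P2 and P3 is a description, and its share over all genes was not counted.

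The P1 means climbed from 26652 ± 4201 in muscle (SD, n = 3) to 56608 ± 8793 in periosteum and 114232 ± 29311 in bone marrow. The other fractions ran the opposite way. P3 was at 17059 ± 1241 in muscle and 1757 ± 620 in bone marrow, and P2 at 10123 ± 2416 in muscle and 208 ± 87.1 in bone marrow. The mean of P1 was thus 549-fold that of P2 in bone marrow, 20.2-fold in periosteum and 2.63-fold in muscle. The periosteum ratio was 31.6 without periosteum P2 replicate 1. In the order of the 9 group means, muscle P3 and periosteum P3 overlapped, as did periosteum P2 and bone marrow P3, and the other neighbours did not.

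Pcsk6 was close in the P1 groups of the 3 tissues and was at 116 or below in all libraries of bone marrow P2 and P3. In muscle the normalized counts were 1888, 1582 and 1238 in P1, 988, 977 and 470 in P2, and 437, 449 and 431 in P3. In periosteum they were 1234, 3256 and 1590 in P1, 316, 1.53 and 77 in P2, and 414, 695 and 199 in P3. In bone marrow they were 3438, 2052 and 2677 in P1, 17.4, 0 and 116 in P2, and 53.2, 39.4 and 43.3 in P3. P1 lay above both other fractions in each tissue, while P2 and P3 overlapped in periosteum and bone marrow.

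Mean Pcsk6 in P1 was 1569 ± 325 (muscle), 2027 ± 1079 (periosteum) and 2722 ± 694 (bone marrow; SD, n = 3), and the libraries of neighbouring tissues overlapped. Muscle was the tissue where P2, at 812 ± 296, lay above P3, at 439 ± 9.04. The mean of P1 was 1.93-fold that of P2 and 3.57-fold that of P3 in muscle. In bone marrow it was 60.1-fold that of P3 and 61.4-fold that of P2, a ratio that rested on bone marrow P2 replicate 3 and was 312 without it. Bone marrow P2 replicate 2 is listed at 0, and without it the ratio was 41.

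Ckb was also highest in bone marrow P1, and muscle P1 came before periosteum P1. In muscle the normalized counts were 3885, 6227 and 5639 in P1, 778, 714 and 657 in P2, and 1546, 1936 and 1706 in P3. In periosteum they were 5325, 3689 and 3434 in P1, 1348, 26 and 2.44 in P2, and 1635, 2791 and 1753 in P3. In bone marrow they were 14770, 16496 and 10288 in P1, 122, 97.2 and 146 in P2, and 932, 501 and 878 in P3. The 3 fractions did not overlap within any tissue, and P1 lay above P3 and P3 above P2 in each. The share of all genes with P3 above P2 in this way was not counted.

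Mean Ckb in P1 was 5250 ± 1219 (muscle), 4150 ± 1026 (periosteum) and 13851 ± 3204 (bone marrow; SD, n = 3). The libraries of bone marrow P1 lay above those of the other P1 groups, and muscle P1 and periosteum P1 overlapped. P1 was 114-fold P2 and 18-fold P3 in bone marrow by the ratio of means, against 7.33-fold and 3.04-fold in muscle. In periosteum the ratio to P3 was 2.01, the smallest of the 3 tissues, and the P2 mean of 459 ± 770 rested on replicate 1, as the others were at 26 and 2.44. That library also had the lowest erythroid share of the 3, at 24.4% against 39.1% and 32.5%, whose part in the result was not tested.

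**Figure D1:**
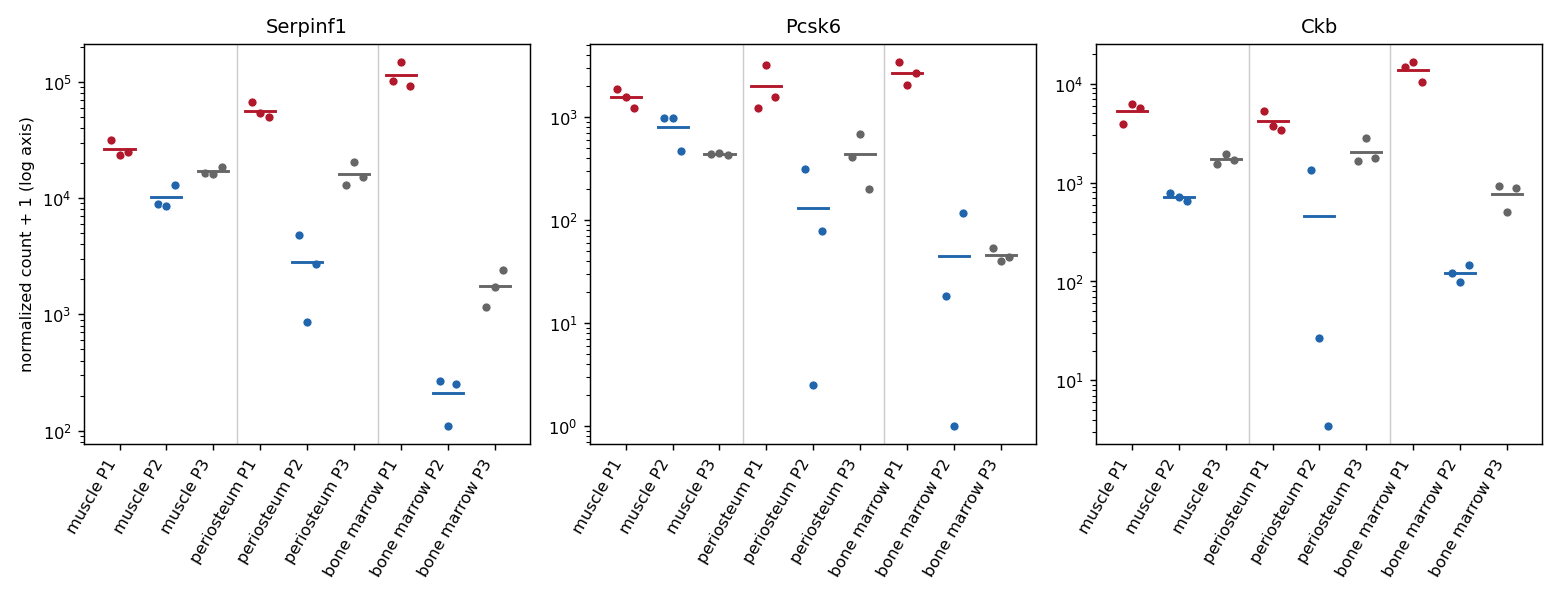
Normalized count + 1 on a log axis for Serpinf1, Pcsk6 and Ckb in the 9 groups (red P1, blue P2, grey P3). Points are the 3 libraries of a group and lines the means. The 9 P1 libraries lie above the 18 others in each panel, and the 3 periosteum P2 libraries are widely spread, from 2.44 to 1348 for Ckb.

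The separation from the rest was complete but narrow across tissues. The lowest P1 library of Serpinf1 was at 23656 in muscle and the highest other library at 20504 in periosteum P3, a ratio of 1.15. For Pcsk6 the lowest P1 library was at 1234 in periosteum and the highest other at 988 in muscle P2, a ratio of 1.25. For Ckb both lay in periosteum, at 3434 in P1 and 2791 in P3, a ratio of 1.23. With quantile normalization the gap closed for Serpinf1, at 20874 in P1 against 22774, and it remained for Pcsk6 and Ckb. Within each of the 3 tissues no overlap arose for the 3 genes under any scaling tried.

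This pattern chose the genes, so its frequency is background only. All 9 P1 libraries lay above all 18 others for 6 genes, or 0.0325% of those tested, and the 6 were also called higher in P1 over all tissues (0.0325%). A call here means an adjusted p below 0.05 and a log2 difference over 1.5 in size. The 3 members were those with the largest log2 difference, 4.03 for Pcsk6, 3.96 for Serpinf1 and 3.80 for Ckb. Just outside lay Mmp2, a gelatinase, at 3.49, Fgfr1, a fibroblast growth factor receptor, at 2.71, and Ctsf, a lysosomal protease, at 2.53. Without the demand across tissues, P1 lay above P2 and P3 of its own tissue in all 3 tissues for 67 genes (0.363%). By size of the difference alone the members ranked 74 (Pcsk6), 84 (Serpinf1) and 100 (Ckb) of the genes tested.

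On the log2 scale the P1 difference grew from muscle to periosteum to bone marrow for all 3 genes. For Serpinf1 the mean of P1 minus that of P2 and P3, on log2(normalized count + 1), was 1.02 (muscle), 3.23 (periosteum) and 7.61 (bone marrow), with an SE of 0.36 each. For Pcsk6 the differences were 1.41, 3.90 and 6.77 (SE 1.13 each), and for Ckb 2.21, 3.69 and 5.50 (SE 0.95 each). The median over all genes tested was 0.00 in muscle and periosteum and -0.39 in marrow. Against P3 alone Ckb did not keep this order, at 1.58 in muscle and 1.03 in periosteum.

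**Figure D2:**
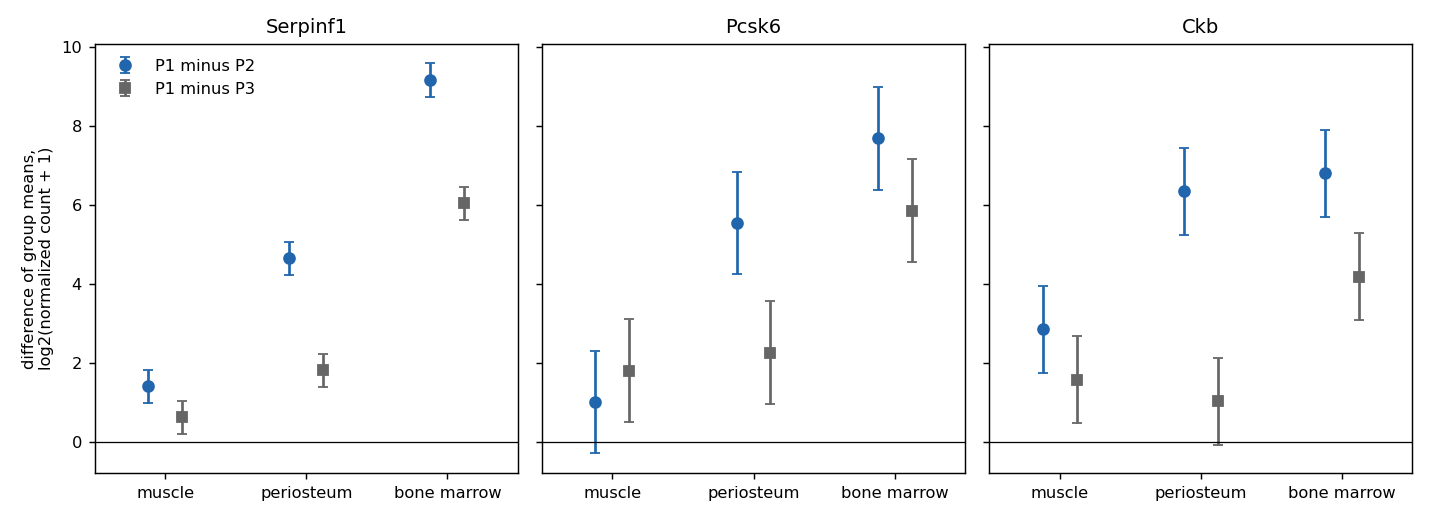
Difference of group means on log2(normalized count + 1) between P1 and P2 (blue circles) or P3 (grey squares) in each tissue, with bars of 1 SE from the fit over all 27 libraries. For P2 and for P3 taken separately, the bone marrow difference is the highest in each panel, up to 9.17 for Serpinf1 against P2.

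Set beside each other, these differences were smaller in muscle and periosteum than in bone marrow, and the values are a description because the choice of the genes used them. For Serpinf1 the P1 difference in muscle minus that in bone marrow was -6.59 (SE 0.51), and that in periosteum minus that in bone marrow was -4.38 (SE 0.51). Muscle minus periosteum was -2.21 (SE 0.51). With any 1 library left out these values ran from -6.73 to -6.38, from -4.73 to -4.10 and from -2.49 to -1.86, so the order of the tissues did not depend on 1 library.

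For Pcsk6 the P1 difference in muscle minus that in bone marrow was -5.36 (SE 1.59), and it was -6.16 without bone marrow P2 replicate 3 and -4.44 without bone marrow P2 replicate 2. The steps from muscle to periosteum, at -2.49, and from periosteum to bone marrow, at -2.87, had the same SE of 1.59. For Ckb muscle minus bone marrow was -3.29 (SE 1.34), with values from -3.49 to -3.08 when 1 library was left out. Its other steps moved with the periosteum P2 libraries. Muscle minus periosteum was -1.47 (SE 1.34) with all libraries, -2.66 without periosteum P2 replicate 1 and -0.51 without periosteum P2 replicate 3. Periosteum minus bone marrow was -1.81 (SE 1.34), and -0.63 and -2.78 without the same libraries.

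Between tissues, P1 cells differed in Serpinf1. It was lower in muscle P1 than in bone marrow P1, at -2.08 on the log2 scale (SE 0.42, limma, adjusted p = 0.00149), and the call was made in all 27 fits that left out 1 library. The share of all genes called in that contrast was 8.34%. Muscle against periosteum, at -1.09 (SE 0.42, adjusted p = 0.151), and periosteum against bone marrow, at -0.99 (SE 0.42, adjusted p = 0.195), did not pass. In those contrasts 4.9% and 4.87% of genes were called. With all libraries rescaled to equal totals, muscle against bone marrow was at -1.40 (limma, adjusted p = 0.0753) and the median of all genes rose by 0.58. Relative to that median, Serpinf1 was at -2.14 as deposited and at -2.04 after rescaling.

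Pcsk6 did not pass in any pair of P1 groups. Muscle against bone marrow was at -0.78 (SE 1.30, limma, adjusted p = 0.922), and muscle against periosteum at -0.26 (SE 1.30, adjusted p = 0.982) turned to 0.14 without periosteum P1 replicate 2. Ckb did not pass either, with muscle against bone marrow at -1.40 (SE 1.10, limma, adjusted p = 0.639) and periosteum against bone marrow at -1.74 (SE 1.10, adjusted p = 0.456). The second of these passed in 3 alternative fits, each with fewer groups or libraries. Its adjusted p was 0.0386 in a fit of the groups compared, 0.000896 without the 3 periosteum P2 libraries and 0.0389 without periosteum P2 replicate 1 alone.

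The P2 and P3 fractions were compared with each other, a contrast without P1. Serpinf1 was lower in P2 than in P3, at -3.12 in bone marrow (SE 0.42, limma, adjusted p = 1.48e-05) and -2.83 in periosteum (SE 0.42, adjusted p = 5.26e-05). These contrasts called 20% and 17.1% of all genes, so a call in them is common. In muscle the difference was -0.78 (SE 0.42, adjusted p = 0.271), did not pass, and 11.2% of genes were called. The periosteum value was -3.39 without periosteum P2 replicate 1 and -2.14 without periosteum P2 replicate 2, passing in all 27 fits that left out 1 library, and had an adjusted p of 0.185 in a fit of the groups compared alone, in which 2 genes in all were called. Erythroid transcripts made up 44.8% to 48.1% of the counts in bone marrow P2 and 3.08% to 4.42% in bone marrow P3, and their part in these differences was not tested.

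Ckb was lower in P2 than in P3 of periosteum, at -5.32 (SE 1.10, limma, adjusted p = 0.00172), and in bone marrow it was at -2.62 (SE 1.10, adjusted p = 0.0908). The periosteum value was -7.70 without periosteum P2 replicate 1 and -3.39 without periosteum P2 replicate 3, and its adjusted p was 0.425 in the groups compared alone. The bone marrow value passed when the noisy periosteum P2 group was absent, with an adjusted p of 3.93e-06, and in the groups compared alone, with 0.0106. Pcsk6 did not pass in any tissue. It was at 0.81 in muscle (SE 1.30, limma, adjusted p = 0.78), at -3.28 in periosteum (SE 1.30, adjusted p = 0.0809) and at -1.83 in bone marrow (SE 1.30, adjusted p = 0.346). The last value was 0.01 without bone marrow P2 replicate 2, the library listed at 0.

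Per length of transcript, the 3 genes sat at different heights. Divided by the length of the longest coding transcript, Serpinf1 stood at 62354 ± 15999 per kb in bone marrow P1 (SD, n = 3), Ckb at 9410 ± 2177 and Pcsk6 at 618 ± 157. In the P1 libraries Serpinf1 lay at or above the 99.6th percentile of 16903 genes with a length. Ckb lay between the 97.8th and 99.6th and Pcsk6 between the 81.7th and 93.7th. In muscle P3 and periosteum P3 Serpinf1 lay between the 99.5th and 99.7th percentile, close to its place in P1. Ckb lay there between 95.3 and 96.7 and Pcsk6 between 53.9 and 73.4. In muscle P2 Serpinf1 was at 98.2 to 98.8. In bone marrow P2 the ranges were 62.8 to 77.9 for Serpinf1, 64.5 to 70.8 for Ckb and 4.98 to 36 for Pcsk6.

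Serpinf1 and Pcsk6 made up a larger part of their gene families in bone marrow P1 than in bone marrow P2 and P3. The levels behind these shares chose the genes, so the shares are a description. Of the summed level per kb of 40 serpins, Serpinf1 made up 63.1% ± 5.49 in bone marrow P1 (SD, n = 3) and 58.4% ± 6.97 in periosteum P1, ahead of each other serpin. In muscle P1 it made up 34.2% ± 3.55, behind Serping1, the inhibitor of complement C1, at 48.3% ± 3.38. Its share was 29.6% ± 3.07 in muscle P3 and 20.3% ± 1.65 in muscle P2. In bone marrow P3 and P2 the share of Serpinf1 was 9.04% ± 5.65 and 5.12% ± 2.44. Serpine2, a protease nexin, led the serpins in bone marrow P3 at 40.2% ± 3.4.

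Pcsk6 was the convertase with the highest level per kb in periosteum P1 and bone marrow P1, at 31.5% ± 13.4 and 36.9% ± 9.51 of the 9 convertases (SD, n = 3). Mbtps1, the site-1 protease of the Golgi, followed at 29.9% ± 5.65 and 30.1% ± 8.93, so the order of the first 2 was within the spread. In muscle P1 Mbtps1 led with 42.7% ± 2.08 and Pcsk6 had 31.4% ± 4. The Pcsk6 share was no lower in muscle P2, at 31.4% ± 11, and was 12.5% ± 0.705 in muscle P3. In bone marrow P3 and P2 Pcsk6 had 1.76% ± 0.506 and 2.63% ± 3.77, and Furin, the ubiquitous convertase, had the highest mean, with 42.9% ± 8.12 and 59.8% ± 4.27. In bone marrow P3 Mbtps1 came to 40.7% ± 8.57, within the spread of Furin.

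Ckb made up nearly all cytosolic creatine kinase transcripts in bone marrow and in P1 and P3 of periosteum, at 99.1% or more in each library. Of Ckb and Ckm per kb, Ckb made up 82.4% ± 6.44 in muscle P1 (SD, n = 3), 94.8% ± 1.15 in muscle P3 and 0.729% ± 0.118 in muscle P2, where Ckm reached 183438 ± 15364 normalized counts. In bone marrow P1, Ckm was listed at 0. In periosteum P2 the share ran from 8.78% to 100%. Without division by length the share in muscle P1 was 71.9% ± 9.21. The myofibre marker share in muscle P2, given above, moved with this low share, and its part was not tested.

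**Figure D3:**
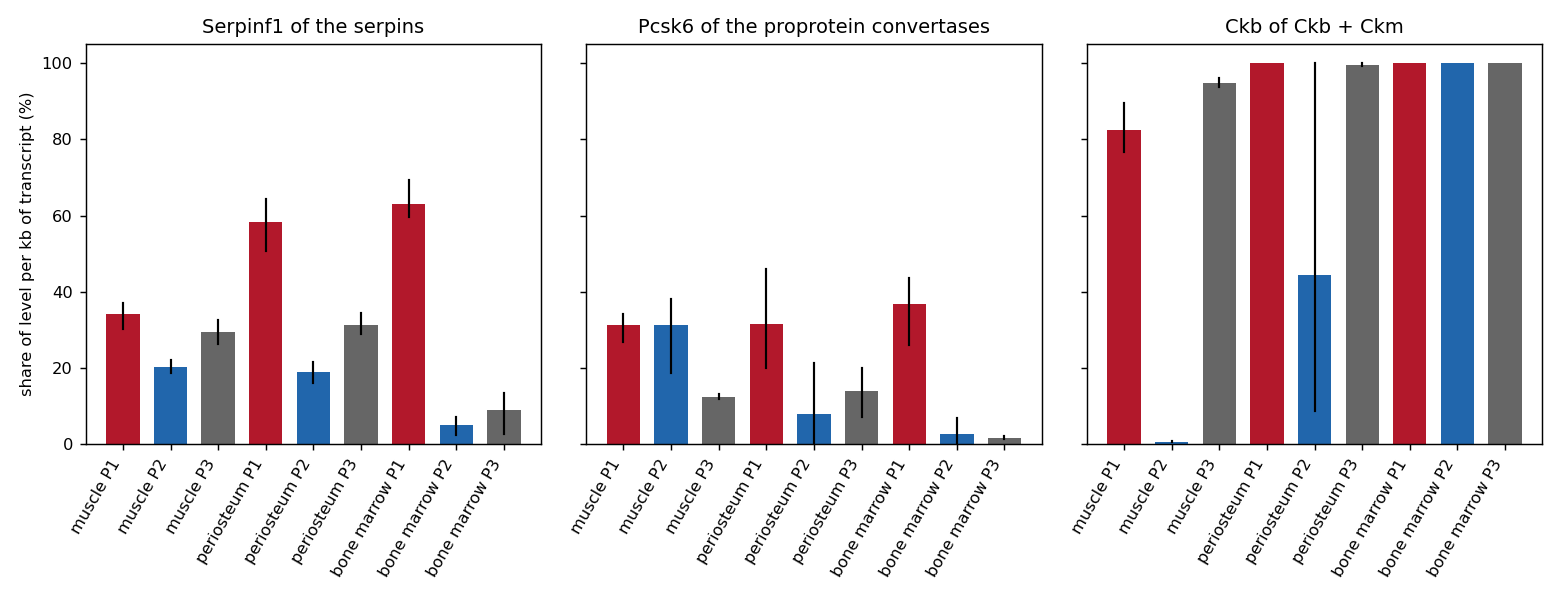
Share of Serpinf1 in 40 serpins, of Pcsk6 in 9 proprotein convertases and of Ckb in Ckb plus Ckm, in % of the summed level per kb of transcript, for the 9 groups (red P1, blue P2, grey P3). Bars are means of 3 libraries and lines run from the lowest to the highest library. Serpinf1 takes 63.1% in bone marrow P1, and Ckb takes 0.729% in muscle P2.

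The other genes of these families and pathways could be tested for a difference between P1 and the other fractions. Over all tissues 11 of 71 such genes were called higher in P1 and 3 lower, where 6.88% and 7.67% of all genes were. The median log2 difference of the 71 was 0.13, against -0.12 over all genes. In bone marrow 10 were called higher and 7 lower (7.48% and 11.5% of all genes), with a median of -0.61 against -0.39. In periosteum 2 were called higher and 2 lower (4.32% and 4.84%), and in muscle limma called 0 in either direction (0.591% and 0.455%), with 5 higher and 0 lower at an unadjusted p below 0.05. Of all genes called over all tissues, 47.3% were higher in P1, and 32.9% after rescaling without the globins and Ckm. In bone marrow that share was 39.5% as deposited and 17.3% to 51.8% under the other scalings. The lists were written with earlier results of these data known.

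Of 67 serpins listed, 39 besides Serpinf1 were tested, and 4 rose and 1 fell in P1 over all tissues. Serpinh1, the collagen chaperone HSP47, was higher by 3.61 (SE 0.48, limma, adjusted p = 5.86e-06), and by 8.93 in bone marrow, where its mean was 36529 in P1 and 27.1 in P2. Serpine2 was higher by 1.80 (SE 0.31, adjusted p = 0.000184), Serping1 by 1.95 (SE 0.54, adjusted p = 0.0125) and Serpina12, known as vaspin, by 2.49 (SE 0.78, adjusted p = 0.0244). Within tissues Serpinh1, Serpine2 and Serping1 were called in bone marrow only. Mean Serping1 was 18757 in P1 and 17460 in P3 of periosteum, and 10402 and 9160 in bone marrow. Mean Serpine2 was 14046 in P1 and 13801 in P3 of periosteum, and 27267 and 12523 in bone marrow. Serpina12 was called in no single tissue. In periosteum its mean was 138 in P1 and 388 in P3, where replicate 2 was at 1106. Serpinb6b was lower, at -2.38 (adjusted p = 0.0381), but not in muscle, where it was at 0.94 (adjusted p = 1). The median over the 39 was -0.15. Serpinf2, which encodes antiplasmin and lies next to Serpinf1, was at -0.60 (adjusted p = 0.474).

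None of 6 genes reported to encode PEDF receptors or binding partners was called by limma over all tissues. Plxdc2, a transmembrane receptor, and Lrp6, a Wnt co-receptor, were both at 1.48, just under the size limit, with SE 0.35 and 0.45 and adjusted p of 0.00371 and 0.0206, and were the 2 of the 6 with an adjusted p below 0.05. Within tissues Plxdc2 was called in bone marrow at 2.47 (SE 0.61, adjusted p = 0.005) and Lrp6 in periosteum at 2.84 (SE 0.78, adjusted p = 0.0201). Pnpla2, the lipase of triglyceride stores, was at -1.03 (adjusted p = 0.343).

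Among the 8 other proprotein convertases, 2 rose. Pcsk5, the close relative of Pcsk6, was higher in P1 by 2.75 over all tissues (SE 0.50, limma, adjusted p = 0.000267) and by 4.16 in bone marrow, with a mean of 2686 in P1 against 103 in P2 and 271 in P3. Mbtps1 was higher by 1.59 (SE 0.42, adjusted p = 0.00834). Within tissues Pcsk5 and Mbtps1 were called in bone marrow only. In muscle Pcsk5 was at 1.46 (adjusted p = 0.687) and Mbtps1 at 0.71 (adjusted p = 0.946). Furin was at -0.17 (SE 0.20, adjusted p = 0.568). The median of the 8 was -0.28. The convertase inhibitors Pcsk1n and Scg5 were low, with group means up to 27.5 for Pcsk1n and 235 for Scg5, and neither was called.

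Of the 10 tested genes whose products such convertases are reported to cut, 3 rose and 1 fell over all tissues, with a median of 1.17. Mmp14, a membrane-bound collagenase, was higher by 2.93 (SE 0.35, limma, adjusted p = 1.49e-06). The bone morphogenetic proteins Bmp7 and Bmp2 were higher by 2.65 (SE 0.61, adjusted p = 0.00282) and 2.59 (SE 0.90, adjusted p = 0.0434). In periosteum the P2 mean of both lay above that of P1, at 1026 against 261 for Bmp7 and 481 against 426 for Bmp2. Within tissues Mmp14 and Bmp7 were called in bone marrow only, and Bmp2 in none. Mmp14 was at 1.61 in muscle (adjusted p = 0.293) and at 1.66 in periosteum (adjusted p = 0.089). Corin, the protease that activates atrial natriuretic peptide, was lower, at -1.70 (SE 0.48, adjusted p = 0.013), with a group mean of at most 122. In muscle Corin was at 2.23 (adjusted p = 0.273), and in P1 of periosteum and bone marrow it was listed at 0. Adamts5, an aggrecanase, had an adjusted p of 0.011 and was not past the size limit.

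The 6 other creatine genes split. Gamt, which makes creatine in the second step of its synthesis, was higher in P1 by 2.45 (SE 0.59, limma, adjusted p = 0.00439), and Slc6a8, the creatine transporter, by 1.97 (SE 0.63, adjusted p = 0.0275). Slc6a8 was called in no single tissue, and in muscle its mean was 352 in P1 and 497 in P2. Gamt was called in bone marrow only, and in periosteum its mean was 487 in P1 and 496 in P3. Gatm, the enzyme of the step before Gamt, was lower, at -2.68 (SE 0.44, adjusted p = 9.25e-05), and its highest group mean was 859 in bone marrow P3. Gatm was called lower in periosteum and bone marrow, at -4.07 and -5.17, and was at 1.21 in muscle (adjusted p = 0.736), with means of 206 in P1, 189 in P2 and 54.2 in P3. Ckm and the mitochondrial Ckmt2 were at -1.64 (adjusted p = 0.084) and -1.15 (adjusted p = 0.133) and peaked in muscle P2. The median of the 6 was -1.39.

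**Figure D4:**
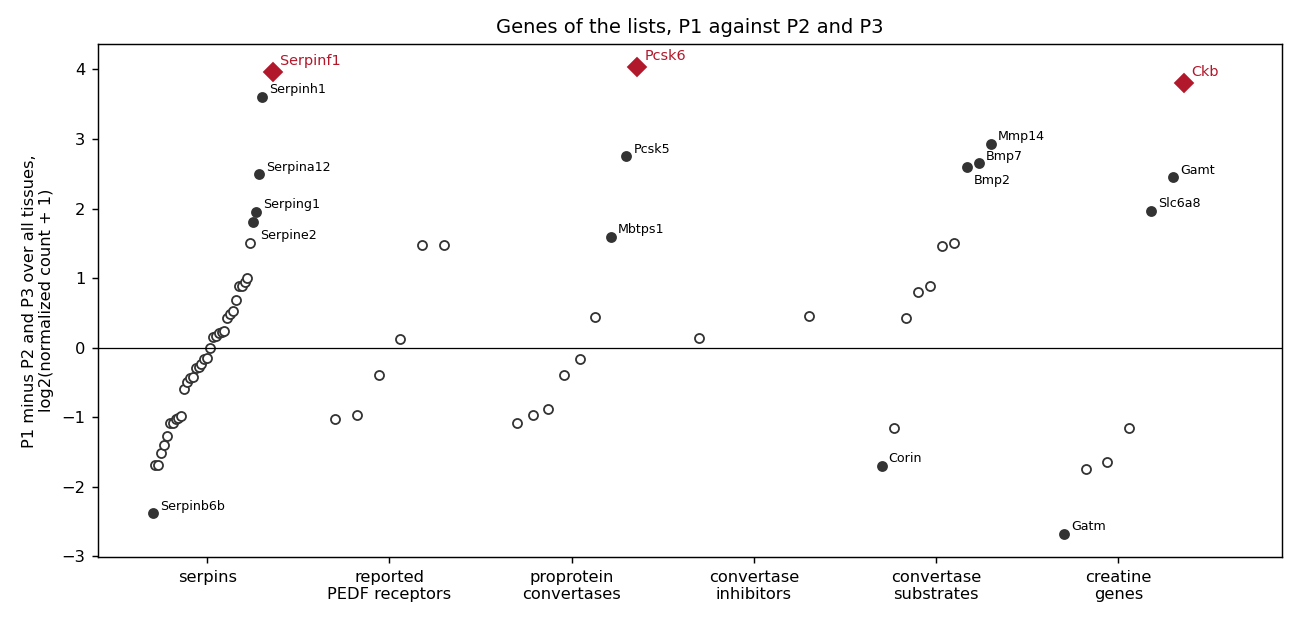
Difference between P1 and the P2 and P3 fractions over all tissues, on log2(normalized count + 1), for the tested genes of the 6 lists. Filled points passed an adjusted p below 0.05 and a size over 1.5, open points did not, and red diamonds are Serpinf1, Pcsk6 and Ckb, which were chosen for higher P1 levels. Pcsk6 stands at 4.03, and Gatm, at -2.68, is the lowest of the points.

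The genes most like each member were found by Pearson's r of log2(normalized count + 1) over the 27 libraries, which share group and depth differences. For Serpinf1 they were Col5a2 (r = 0.959), Mmp2 (0.956), Pcolce (0.949), Fkbp7 (0.945) and Col5a1 (0.942). These encode chains of type V collagen, a gelatinase, an enhancer of procollagen processing and a chaperone of the endoplasmic reticulum. Mean Col5a2 was 77119 in bone marrow P1 and 241 in bone marrow P2. For Pcsk6 they were B3gnt9 (0.908), Rbfox2 (0.901), Dbndd2 (0.898), Serpinf1 (0.896) and Boc (0.894). Serpinf1 was chosen by the same P1 pattern as Pcsk6.

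For Ckb the nearest genes were Kazald1 (0.937), a secreted protein of the insulin-like growth factor binding group, then Tspyl2 (0.931), Chpf2 (0.926), Nnmt (0.92) and Gamt (0.919). Gamt is also in the creatine list, where its P1 difference drew on the same libraries, so its place here is not separate support. Between the members, r over the 27 libraries was 0.896 for Serpinf1 and Pcsk6, 0.792 for Serpinf1 and Ckb and 0.769 for Pcsk6 and Ckb. The choice of the members by the same P1 pattern favoured a high r over these libraries, so these values are a description. After the group means were taken out, the values were 0.75, 0.403 and 0.353, and without the periosteum P2 libraries 0.484, 0.329 and 0.332. Over the 9 P1 libraries alone, which the 3 tissues divide, they were 0.526, 0.702 and 0.372.

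The genes around the members were read from the annotation, 3 protein-coding genes on each side. In the contrast over all tissues 6.88% of all genes were called higher in P1 and 7.67% lower. Around Serpinf1, Rtn4rl1, a Nogo receptor homologue 141999 bases away, was higher in P1 by 3.16 (limma, adjusted p = 0.00237) and the other 5 genes were not called over all tissues. Of these 5, Tlcd2 at 1.48 (adjusted p = 0.00276) and Rpa1 at -1.37 (adjusted p = 0.0143) missed the size limit only. Smyd4, 4063 bases from Serpinf1, was at 0.39 (adjusted p = 0.668). Around Pcsk6, Tm2d3 was higher by 1.62 (adjusted p = 0.0437), Selenos, a selenoprotein of the endoplasmic reticulum, by 1.97 (adjusted p = 4.5e-08), and Tarsl2, a threonyl-tRNA synthetase, was lower, at -2.68 (adjusted p = 0.00725).

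Snrpa1, 8616 bases beyond Pcsk6, was at -0.34 (limma, adjusted p = 0.363), and Tjp1 was at 0.71 (adjusted p = 0.248). Around Ckb, Gm266 was higher in P1 by 5.62 (limma, adjusted p = 5.79e-10), from a mean of 2.22 over the other libraries to 179 over P1. Trmt61a, a tRNA methyltransferase 5766 bases away, was higher by 2.30 (adjusted p = 0.0445), while Mark3, 13139 bases away on the other side, was at -0.46 (adjusted p = 0.716). In none of the neighbours that were tested did all 9 P1 libraries lie above the 18 others.

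**Figure D5:**
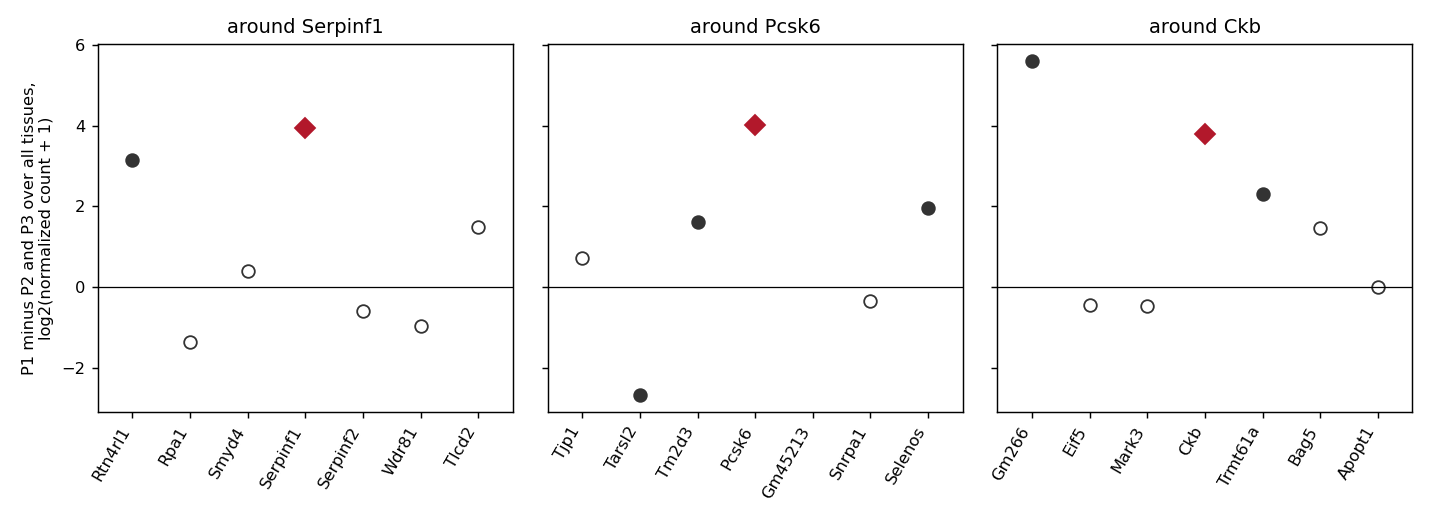
Difference between P1 and the P2 and P3 fractions over all tissues, on log2(normalized count + 1), for 3 protein-coding genes on each side of Serpinf1, Pcsk6 and Ckb, in genome order and not to scale. Filled circles passed the call, open circles did not, red diamonds are the members, and Gm45213 was not used here. Gm266, at 5.62, lies above Ckb, and the other neighbours lie below their member.

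Markers of other cell types were counted in the same contrast over all tissues, where 6.88% of all genes were called higher and 7.67% lower. Called higher in P1 were 8 of 8 osteoblast, 5 of 5 tenocyte, 4 of 6 chondrocyte, 4 of 5 satellite cell, 3 of 5 mural and 1 of 5 Schwann cell markers. These calls average the tissues and need not hold in each. The chondrocyte markers made up 1.98% to 3.78% of the counts in periosteum P2 and 0.707% to 3.22% in periosteum P1. The satellite cell markers Pax7 and Myf5 were listed at 0 in all bone marrow P1 libraries. Called lower were 6 of 6 erythroid, 5 of 5 endothelial, 2 of 6 myofibre and 1 of 7 leukocyte markers. Of the 5 fibro-adipogenic and 4 mesenchymal marrow markers, limma called 0 in either direction. The osteoblast markers made up 3.99% to 5.65% of the counts in bone marrow P1, 1.4% to 3.29% in periosteum P1 and 0.109% to 0.201% in muscle P1. This order of tissues is that of Serpinf1 in P1, and its part in the Serpinf1 levels was not tested.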

How the data were processed

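The authors trimmed SMART-Seq v4 reads with Trim Galore, aligned them with STAR and normalized counts with DESeq2. The deposited table holds these normalized counts, treated here as a signal, since whole reads could not be recovered and no counting error is given. The build, annotation and counting tool are not given in the sources used here. All 27 libraries entered 1 limma 3.58.1 fit (R 4.3.3, lmFit, eBayes with trend) of log2(normalized count + 1) with a mean per group. Genes needed a value of 10 in 3 libraries, which removed 11711, and p-values were adjusted by Benjamini-Hochberg over all 18442 genes kept. The members and lists were chosen with earlier results of these data known. A planned test of the members' P1 differences between tissues is given as description, since the choice used those differences. Besides the members, the 5 genes of highest r, the genes just outside the choice, neighbours, and list genes that were called or among the 3 of highest mean level were named. Others were chosen after their values were seen. Lengths are of the longest coding transcript in GENCODE M21, which held 29732 of the identifiers. The fit was tested on simulated data. No 2 libraries were identical. Figures used Python 3.11.15 and matplotlib 3.10.9.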

Additional observations from a re-analysis of the deposited data

How the results depend on the processing

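Serpinf1 in bone marrow P2 against P3 passed in all alternatives, with an adjusted p of at most 0.0106. Serpinf1 in muscle P1 against bone marrow P1 did not pass at -1.40 (rescaled totals) or -1.42 (the same without globins and Ckm). The P1 differences set between tissues, which carry no test, stayed below 0 for the 3 genes in every alternative. For Serpinf1 muscle against bone marrow moved to -5.88 and -5.46 (the 2 rescalings) and -6.00 (quantile normalization), and periosteum against bone marrow to -3.74 (rescaled without globins and Ckm). The P2 against P3 difference passed in more fits, at -1.51 for Serpinf1 in muscle (rescaled totals), -2.81 (pseudocount 5) and -3.95 (rescaled totals) for Pcsk6 in periosteum, and -3.71 (rescaled totals) and -2.82 (quantile normalization) for Ckb in bone marrow.

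In the groups compared alone, P2 against P3 in periosteum did not pass at -2.83 for Serpinf1 and -5.32 for Ckb. Ckb passed there, and also without the 3 periosteum P2 libraries (chosen after seeing the data), at -1.74 (P1, periosteum against bone marrow) and -2.62 (P2 against P3 in bone marrow). The cause of these changes was not tested. All genes called in the groups compared alone numbered 2862 (P1, muscle against bone marrow), 3810 and 2 (P2 against P3 in muscle and in periosteum). P1 against P2 and P3 then called 907 (muscle), 216 (periosteum) and 5720 (bone marrow). Other counts that moved were 1499 (P2 against P3 in bone marrow, mean of at least 50), and 126 and 305 (P1 in muscle, pseudocounts of 0.1 and 5). Genes of the lists called higher were 1 (quantile) and 4 (groups alone) for muscle, 1, 4, 4 and 0 for periosteum (pseudocounts 0.1 and 5, quantile, groups alone) and 5 for bone marrow (rescaled without globins and Ckm). Those called lower were 1 for muscle (groups alone), 1 and 0 for periosteum (mean of at least 50, groups alone) and 4, 3 and 11 for bone marrow (pseudocount 0.1, mean of at least 50, groups alone).

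With each library left out in turn, Serpinf1 ranged from -3.39 to -2.14 (P2 against P3, periosteum). Pcsk6 ranged from -0.56 to 0.14 (P1, muscle against periosteum), -4.78 to -1.30 (P2 against P3, periosteum) and -3.42 to 0.01 (P2 against P3, bone marrow). It reversed at 0.14 without periosteum P1 replicate 2 and at 0.01 without bone marrow P2 replicate 2. Ckb ranged from -1.94 to -1.60 (P1, periosteum against bone marrow) and -2.90 to -2.46 (P2 against P3, bone marrow). Counts over all genes ranged from 497 to 1119, 502 to 1173 (P1 of muscle and of bone marrow against periosteum), 1338 to 2412 and 1804 to 4294 (P2 against P3, muscle and bone marrow), and 99 to 250, 1118 to 2561 and 2185 to 4078 (P1 in muscle, periosteum and bone marrow). List genes called higher ranged from 0 to 1, 1 to 7 and 6 to 11 in muscle, periosteum and bone marrow, and lower from 2 to 6 over all tissues and 1 to 4 in periosteum.

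Over 36 pairs of groups the residuals of same-numbered libraries had r from -0.0592 to 0.0502. This gave no sign of pairing by replicate number. With 3 libraries per group it cannot tell whether libraries shared animals. With the replicate number as a block, no call of the members changed, and Serpinf1 in muscle P1 against bone marrow P1 was at -2.08 (limma, adjusted p = 0.00162). Libraries with 3 per group and wide P2 groups limit what these tests can detect for Pcsk6 and Ckb.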
